A study of Mus musculus with 6 samples.

Results

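The TRIM (tripartite motif) family was followed in N18-Fms cells through stimulation with CSF-1. Its members were taken by name: every gene whose name on the arrays was Trim followed by a number and an optional letter. The arrays named 62 such genes out of 36028 genes with a usable probe. The scanning software flagged 49 of these as well above background on each array of some group, and these were tested among the 24648 genes that met the same condition. The other 13 were Trim29, Trim31, Trim36, Trim43b, Trim50, Trim52, Trim60, Trim61, Trim63, Trim66, Trim67, Trim72 and Trim75. A further 3 probes sat under older clone names that RefSeq now gives as Trim12c, Trim30b and Trim80, and these are described with their chromosomal neighbours only.

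N18-Fms cells, labelled N18-CFMS, are a subclone of C2H, a clonal line from a TRAMP mouse prostate tumor. They carry luciferase and neomycin resistance, were transduced by retrovirus with murine c-fms, the gene of the CSF-1 receptor, and were sorted by flow cytometry for the receptor. They were grown with dihydrotestosterone in all groups, and they stand for 1 clone that expresses the receptor from a vector. Single-color Agilent mouse arrays were hybridized with RNA of 3 groups, 2 arrays each. Control cells are given as vehicle in one label and as untreated in another. The 24H CSF1 and 48H CSF1 groups received mouse CSF-1 (100 ng/mL), and their sample labels give the exposure as 24 h or 48 h, whereas the methods give shorter times. The RNA came from 2 independent experiments by the methods.

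TRIM proteins share a RING domain, one or more B-boxes and a coiled coil, and most of them act as E3 ubiquitin ligases. The part after the coiled coil differs between members and sorts them into groups, of which the largest carries a B30.2 (PRY-SPRY) domain. Many B30.2 members are known as interferon-induced genes that restrict viruses or adjust the sensing of foreign nucleic acids, and others regulate chromatin, microtubules or RNA.

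Each value below is the log2 of the deposited spot signal minus the 75th percentile of its array, for the brightest probe of the gene. A value of 0 is the signal that 75% of spots do not exceed, and a difference of 1 is a doubling. Levels of different genes come from different probes, and no result below compares them. Differences were tested with limma across all 24648 genes, 2-sided, and a gene was called where the Benjamini-Hochberg adjusted p was under 0.05. On each array 59305 spots were read, of which between 58.7% and 72.0% were well above background and 0 were saturated. The first 24H CSF1 replicate lay on another slide than the other 5 arrays. With 2 arrays a group their number limits the precision, and an exact permutation test of 2 arrays against 2 could not give a p under 0.333.

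At 24H, 13 of the 49 members rose and 4 fell, beside 8.02% and 5.99% of all genes tested. At 48H, 14 rose and 4 fell, beside 6.58% and 7.38% of all genes. The median log2 difference of the members was 0.37 at 24H and 0.29 at 48H, where the median of all genes was 0.04 and -0.04. Both comparisons used the same 2 Control arrays. In the upward direction 12 members passed at both times, and in the downward direction 2 did. The share of all genes that passed at both times was not counted. Median centring in place of the 75th percentile moved the median of all genes to -0.27 at 24H, and under it 10 members rose and 10 fell at 24H, beside 4.68% and 15.3% of all genes. Of the 38 members well above background on all 6 arrays, 8 rose and 4 fell at 24H, and 9 rose and 4 fell at 48H. When only genes above background on all 6 arrays were fitted, 11 of these members rose and 5 fell at 24H. Beside them stood 8.5% and 8.85% of all such genes. At 48H in that fit 10 rose and 5 fell, beside 7.68% and 11.7%. Without 1 array the number that rose at 24H was 7 (without the second Control array), 6 (without either 24H array) or 12, and at 48H it was 8 without either Control array, 9 without the first 48H array and 6 without the second. The share of all genes that rose at 24H was 2.87% without the second Control array. It was 2.9% and 2.55% without the first and second 24H arrays, and 3.75% to 6.81% under the other omissions. At 48H that share was 2.63% and 2.8% without the first and second Control arrays. It was 3.52% without the first 48H array and 2.78% without the second. Those that fell at 24H numbered 0 to 2 and those that fell at 48H 0 to 4 under the same omissions, with 0 at 24H without the second Control array or the first 24H array and 0 at 48H without the first Control array or the second 48H array. With each array left out in turn, the share of all genes that fell was 0.978% to 3.49% at 24H and 0.901% to 3.91% at 48H.

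**Figure D1:**
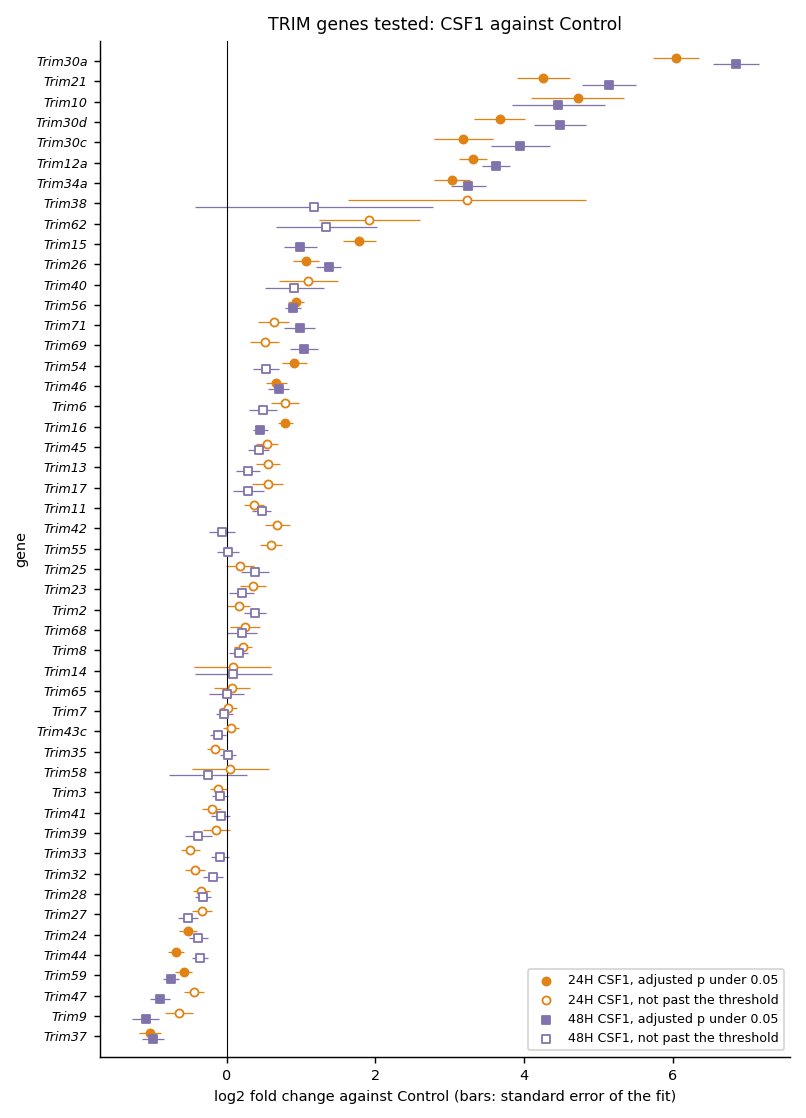
Fitted log2 fold change of each of the 49 TRIM genes tested at 24H (circles) and 48H (squares) against Control, with the standard error of the fit as a bar; filled symbols passed the adjusted threshold. Trim30a, Trim21, Trim10, Trim30d, Trim30c, Trim12a and Trim34a lie above 3 at both times, and every member that fell lies between 0 and -1.1. The fitted values of Trim30a and Trim38, dim on both Control arrays, are not bounds. Trim15 was dim there too, and its fitted values equal its bounds.

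Of the rises, 8 at each time were of members known from interferon responses, most of them of the B30.2 type. All 12 of these on the arrays were tested, and 8 rose at each time (Trim30a, Trim21, Trim30d, Trim30c, Trim12a, Trim34a, Trim26 and Trim56), while 0 fell. Their median log2 difference was 3.10 at 24H and 2.31 at 48H, and 3.03 at 24H with members dim in Control set to their lower bound. Under the other scalings this median lay between 1.46 and 2.80 at 24H and between 1.5 and 2.24 at 48H. The 48H median fell between Trim26 (1.37) and Trim34a (3.25), and no member of the group lay between these. Those with a lower fitted value at 48H than at 24H were Trim38 (3.23 to 1.17, not called), Trim6 (0.79 to 0.49, not called) and Trim56 (0.93 to 0.89). The others had a higher fitted value at 48H. None of these differences between the times passed the adjusted test. Of the 37 remaining members tested, 5 rose and 4 fell at 24H, beside 8.02% and 5.99% of all genes tested. At 48H 6 rose and 4 fell, beside 6.58% and 7.38% of all genes tested. Their median was 0.16 at 24H and 0.02 at 48H, and it took either sign among the scalings, from -0.15 to 0.12 at 24H and from -0.09 to 0.03 at 48H.

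Trim30a, which in mouse dampens Toll-like receptor signaling to NF-kB, was read at -6.91 and -6.51 on the Control arrays. It was at -0.89 and -0.45 at 24H, and at -0.23 and 0.52 at 48H. It was well above background on 0 of 2 Control arrays and on all 4 stimulated arrays. It was at least 22.7-fold higher at 24H (adjusted p = 0.00145) and at least 39.8-fold higher at 48H (adjusted p = 0.00102). Such a bound takes, for each dim array, the higher of the probe's own signal and the lowest signal that was well above background there.

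Its neighbour Trim30d was measured in every group. It stood at -4.34 and -3.65 in Control, at -0.55 and -0.09 at 24H and at 0.14 and 0.84 at 48H, so that the groups did not overlap. The log2 difference was 3.67 ± 0.35 (SE) at 24H and 4.48 ± 0.35 at 48H, or 12.7-fold and 22.4-fold (adjusted p = 0.0055 and 0.00294). Trim30c was well above background on 1 of 2 Control arrays, where it read -4.29 and -5.06. It was at -1.78 and -1.20 at 24H and at -1.13 and -0.32 at 48H. The fitted rise was 3.18 ± 0.40 at 24H and 3.95 ± 0.40 at 48H (adjusted p = 0.0101 and 0.00589). The 24H call of Trim30c was lost without the second Control array (2.80, adjusted p = 0.0548) and without the second 24H array (2.90, adjusted p = 0.0552).

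Trim21, a cytosolic receptor for antibodies bound to incoming virus, read -4.54 and -4.08 in Control. It reached -0.15 and 0.05 at 24H and 0.32 and 1.34 at 48H, all 4 values well clear of Control. The rise was 4.26 ± 0.36 at 24H and 5.14 ± 0.36 at 48H, or 19.1-fold and 35.2-fold (adjusted p = 0.0042 and 0.00224). Trim12a, a mouse relative of the retroviral restriction factor TRIM5, went from -3.37 and -3.12 to 0.02 and 0.11 at 24H and to 0.16 and 0.59 at 48H. Its replicates lay within 0.5 of each other in each group, and its rise was 9.91-fold at 24H and 12.3-fold at 48H (adjusted p = 0.00164 and 0.00131). Trim34a, from the same family branch, read -4.64 and -4.65 in Control with 1 of 2 arrays well above background. It read -1.65 and -1.59 at 24H and -1.75 and -1.04 at 48H, a fitted rise of 3.03 ± 0.24 and 3.25 ± 0.24 (adjusted p = 0.00361 and 0.00251).

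With each array left out in turn, Trim30a, Trim30d, Trim21, Trim12a and Trim34a kept their calls at both times, at adjusted p up to 0.0362. The size of these changes depended on how dim signals were treated. After normexp background correction with an offset of 50, which compresses dim signals, the log2 rise of Trim30a was 2.51 at 24H and 3.23 at 48H, that of Trim21 was 2.65 and 3.44, that of Trim30d 2.20 and 2.92, that of Trim30c 1.67 and 2.28, that of Trim12a 2.26 and 2.56, and that of Trim34a 1.49 and 1.64, and all of these passed the threshold.

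Trim26 and Trim56 were bright in every group and moved less. Trim26, a ligase encoded within the MHC region, read 2.76 and 3.12 in Control, 3.98 and 4.04 at 24H and 4.17 and 4.46 at 48H. It rose by 1.07 ± 0.17 at 24H and 1.37 ± 0.17 at 48H, or 2.10-fold and 2.59-fold (adjusted p = 0.0197 and 0.0107). Trim56, which ubiquitinates proteins of the DNA-sensing pathway, read 0.80 and 0.73 in Control, 1.73 and 1.66 at 24H and 1.61 and 1.69 at 48H. It rose by 0.93 ± 0.11 and 0.89 ± 0.11 (adjusted p = 0.00861 and 0.00973). Neither gene overlapped Control at either time. The 24H call of Trim26 was lost without the first Control array (0.89, adjusted p = 0.0748) or either 24H array (up to 0.0884), and its 48H call without the first Control array (1.19, adjusted p = 0.0529) or the second 48H array (1.23, adjusted p = 0.0572). The 24H call of Trim56 was lost without the second Control array (0.89, adjusted p = 0.053) or either 24H array (adjusted p = 0.0526 and 0.0503), and its 48H call without either Control array (adjusted p = 0.0518 and 0.058) or the second 48H array (adjusted p = 0.0625).

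The other 4 members of this group did not pass. Trim25, the ligase that ubiquitinates the RNA sensor RIG-I and also conjugates ISG15, read 4.48 and 4.49 in Control, 4.47 and 4.87 at 24H and 4.70 and 5.04 at 48H (differences of 0.18 and 0.38, adjusted p = 0.572 and 0.243). Trim6, which builds free ubiquitin chains in interferon signaling, read -3.93 and -4.42 in Control, -3.39 on both 24H arrays, and -3.61 and -3.76 at 48H (0.79 and 0.49, adjusted p = 0.0504 and 0.146). Trim14, an adaptor without a RING domain, read -3.79 and -3.78 in Control and straddled them at both times (0.08 and 0.09). Trim38, which acts on several adaptors of nucleic-acid sensing, showed the widest spread between replicates. It read -5.17 and -4.94 in Control, -4.21 and 0.55 at 24H, and -2.79 and -4.98 at 48H. The 2 stimulated replicates thus differed by more than 2 log2 units at each time, and the adjusted p was 0.245 and 0.68.

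**Figure D2:**
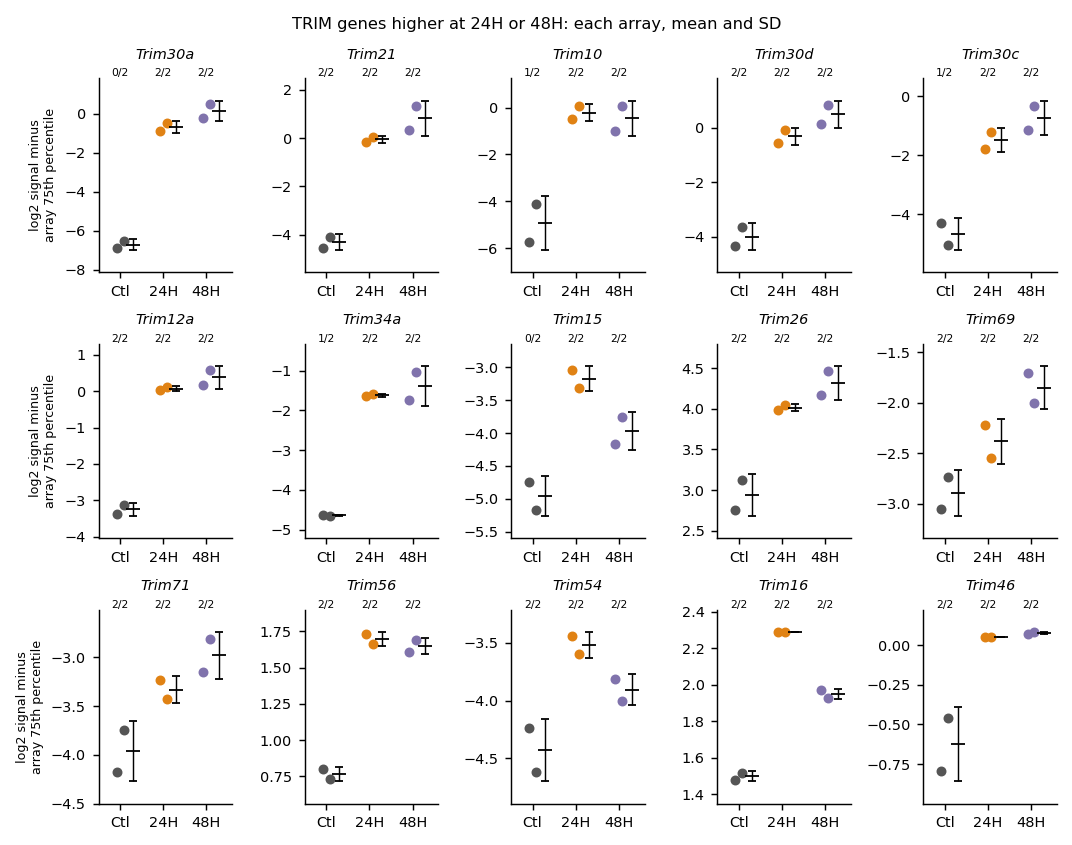
Log2 signal relative to the 75th percentile on each of the 6 arrays (dots) for the 15 TRIM genes that rose at either time, with the mean and SD of the 2 arrays of a group beside the dots; each panel has its own axis, and the fractions above it give the arrays well above background. In Trim30a and Trim15 the Control dots lie on 0 of 2 such arrays. The plotted distance exceeds the bound in Trim30a (65.7-fold by the fit at 24H against at least 22.7-fold) and equals it in Trim15.

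Trim25 was read by a pair of probes that differed. The brightest one, whose place in mm9 is given as chr11:88874956-88881181 on the plus strand, spans 6226 bases on the genome and gave the values above. The other, at chr11:88881521-88881580 on the same strand, read 2.98 and 3.36 in Control, 4.31 and 4.34 at 24H, and 4.54 and 4.78 at 48H. Its stimulated arrays all lay above its Control arrays, and when all 34814 probes above background were tested one by one its log2 difference was 1.15 ± 0.17 at 24H (adjusted p = 0.018) and 1.48 ± 0.17 at 48H (adjusted p = 0.0103). In the same test the brightest probe gave 0.18 (adjusted p = 0.575) and 0.38 (adjusted p = 0.256). Among the other members with a further probe above background, Trim12a gave 2.06 and 2.14 by its further probe (adjusted p = 0.0073 and 0.00603) with 1 of 2 Control arrays well above background, and Trim59 gave -0.58 and -0.79 (adjusted p = 0.0678 and 0.0354). The further probe of Trim34a was well above background on 0 of 2 Control arrays, and by it the gene was at least 2.6-fold higher at 24H and at least 2.55-fold higher at 48H (adjusted p = 0.00985 and 0.0104). For Trim16 the further probe gave 0.51 and 0.20 and did not pass (adjusted p = 0.0976 and 0.459).

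**Figure D3:**
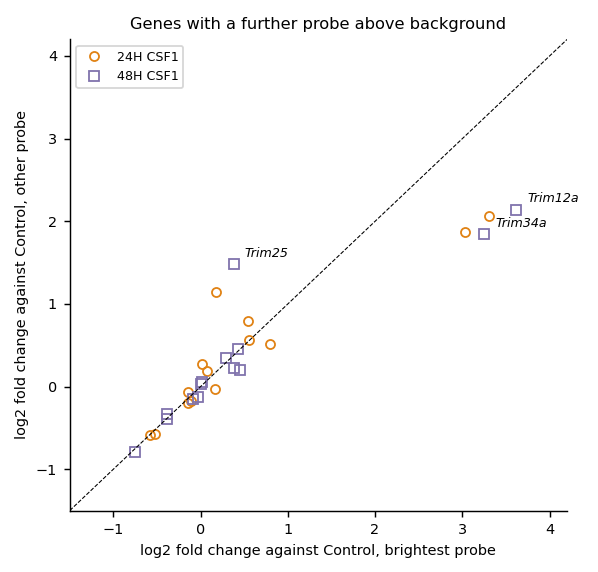
Log2 fold change against Control of the further probe plotted against that of the brightest probe, for the 14 TRIM genes with a further probe well above background on both arrays of a group, at 24H (circles) and 48H (squares); the dashed line marks equality. Trim25 lies above the line (1.48 against 0.38 at 48H), and Trim12a and Trim34a lie below it. The further probe of Trim34a was dim on both Control arrays, so its plotted value is not a bound.

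By position, 6 of the 10 members tested on chromosome 7 rose at each time, and 3 of the 5 tested on chromosome 17. Of all genes tested, 8.02% rose at 24H and 6.58% at 48H. Both chromosomes hold a run of TRIM genes. The order in RefSeq on chromosome 7 is Trim6, Trim34a, Trim5, Trim12a, Trim34b, Trim12c, Gm38525, Trim30b, Trim30c, Trim30a and Trim30d, and of these Trim5, Trim34b and Gm38525 were under no name on the arrays. The probes of the members that rose map in mm9 to chr7:111410513-111410572 on the plus strand for Trim34a and, on the minus strand, to chr7:111448499-111448558 for Trim12a, chr7:111530579-111530638 for Trim30c, chr7:111557578-111557637 for Trim30a and chr7:111620805-111620864 for Trim30d. Trim21 lies apart from the run, with its probe at chr7:109706478-109706537.

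The probe now assigned to Trim30b read -5.65 and -6.60 in Control with 0 of 2 arrays well above background, -3.81 and -3.47 at 24H and -3.08 and -2.23 at 48H. It was at least 2.89-fold higher at 24H and at least 5.73-fold higher at 48H (adjusted p = 0.0215 and 0.00937). The probe of Trim12c read -3.67 and -5.25 in Control, with 1 of 2 arrays well above background. It read -2.79 and -3.15 at 24H and -3.06 and -2.62 at 48H. It did not pass (1.49 and 1.62, adjusted p = 0.122 and 0.104). The genes of this run are near copies of each other in part, and cross-hybridization was not tested. Among the probes of all members tested on chromosomes 7 and 17 and of the 3 renamed genes, the longest stretch shared on the same strand was 10 bases (Trim3 and Trim40), and the next longest was 9. Probes were compared with one another and not with transcripts, so this cannot show how far a probe binds a related gene.

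On chromosome 17 the run is Trim26, Trim15, Trim10, Trim40 and Trim31. Trim10, first described in maturing red cells, read -5.75 and -4.12 in Control, with 1 of 2 arrays well above background. It read -0.47 and 0.05 at 24H and -1.0 and 0.07 at 48H. The fitted rise was 4.72 ± 0.62 at 24H and 4.46 ± 0.62 at 48H (adjusted p = 0.0115 and 0.0141). Leaving out the first Control array lowered it to 3.91 at 24H, and leaving out the second raised it to 5.54, while the call at 24H was lost without either 24H array (adjusted p = 0.0507 and 0.061) and at 48H without the second 48H array (3.93, adjusted p = 0.0653). With normexp and the 75th percentile the rise was 2.74 at 24H and 2.51 at 48H. The 48H call was lost when dim probes were kept in (adjusted p = 0.0561).

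Trim15, a focal-adhesion protein of the family, read -4.74 and -5.17 in Control on 0 of 2 arrays well above background. It read -3.04 and -3.31 at 24H and -4.17 and -3.76 at 48H. It was at least 3.45-fold higher at 24H (adjusted p = 0.0101) and at least 1.99-fold higher at 48H (adjusted p = 0.0438). The 48H call was lost on leaving out any 1 of the 6 (adjusted p as high as 0.163), and the 24H call without the second Control array (adjusted p = 0.0537) or the first 24H array (0.0547). With normexp and the 75th percentile, which compresses dim signals, the log2 difference was 0.72 at 24H and 0.32 at 48H (adjusted p = 0.00354 and 0.0863). The 48H call was also lost with quantile normalization (adjusted p = 0.0598), with dim probes kept in (0.126) and with the replicate block (0.0634). Trim40 read -3.59 and -4.63 in Control, -2.99 and -3.03 at 24H and -3.55 and -2.84 at 48H (differences of 1.1 and 0.91, adjusted p = 0.13 and 0.193). Trim31 was well above background on 1 array at 24H and 1 at 48H and was not tested.

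**Figure D4:**
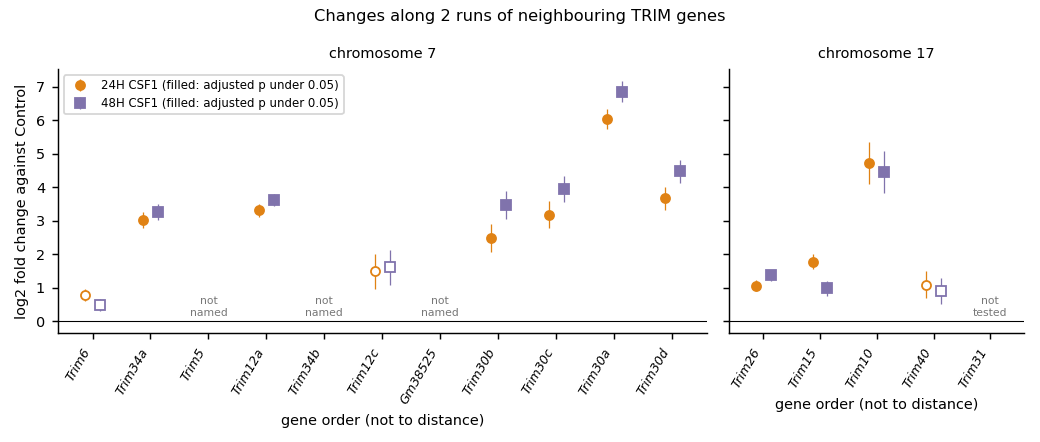
Fitted log2 fold change against Control, with its standard error, of the genes in the runs on chromosomes 7 and 17, in the order of the RefSeq table and not to distance; filled symbols passed the adjusted threshold, and genes marked not named or not tested have no value. On chromosome 7 the genes from Trim34a to Trim30d that have a value lie at 1.49 or above by the fit, where Trim30a and Trim30b were dim on both Control arrays and their fitted values are not bounds, and Trim6 at the near end lies at 0.79 and 0.49.

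The promoters of the members were read from the RefSeq table of build GRCm38.p6, from 250 bases before to 50 after each start, which held 47 of the 62 members. Both strands were searched for the core of the interferon-stimulated response element, written as GAAA, any 2 bases, GAAA. Among the 14 genes with a promoter that rose at either time, 6 (42.9%) held it in at least 1 window: Trim12a, Trim21, Trim26, Trim30a, Trim30d and Trim34a. It was found in 1 of 24 other members tested (4.17%, Trim2) and in 0 of 9 members not tested, and in 3.99% of all 27025 genes of the table. The gamma-activated core, TTC, any 3 bases, GAA, was found in 3 of the 14 (21.4%), in 2 of the 24 (8.33%) and in 9.55% of all genes. These are matches of letters only, and genes with several starts had more windows in which to match.

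The stretches around the matches are shown because the genes that hold them include the largest changes of the family. Each is 5′ to 3′ on the strand of its gene, with the match in capitals, and where capitals run beyond 10 bases 2 matches overlap.
Trim30a, chr7:104465185-104465264, minus strand: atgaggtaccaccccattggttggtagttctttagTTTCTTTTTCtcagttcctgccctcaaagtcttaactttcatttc
Trim30a, another start, chr7:104446096-104446158, minus strand: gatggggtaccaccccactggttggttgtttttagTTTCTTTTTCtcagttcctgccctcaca
Trim30d, chr7:104507846-104507925, minus strand: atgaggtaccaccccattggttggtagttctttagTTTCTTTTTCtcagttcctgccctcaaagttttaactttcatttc
Trim12a, chr7:104315466-104315520, minus strand: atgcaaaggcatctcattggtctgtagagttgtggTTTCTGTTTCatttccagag
Trim34a, chr7:104244432-104244486, plus strand: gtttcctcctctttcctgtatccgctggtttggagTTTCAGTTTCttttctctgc
Trim21, chr7:102565453-102565504, minus strand: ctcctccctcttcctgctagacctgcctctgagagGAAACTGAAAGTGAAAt
Trim26, chr17:36836951-36837036, plus strand: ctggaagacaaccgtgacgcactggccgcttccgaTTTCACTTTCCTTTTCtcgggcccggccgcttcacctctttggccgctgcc

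The match began 36 bases before the start in the first Trim30a window and 41 before it in Trim30d, and over 63 bases aligned on the match these stretches were identical at 63 positions. It began 2 bases after the start in the other Trim30a window, 10 after it in Trim12a and in Trim34a, 13 after it in Trim21 and 160 before it in Trim26. Trim10, Trim15, Trim30c, Trim46, Trim54, Trim56, Trim69 and Trim71, which also rose, held no such match in these windows.

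Outside the interferon-linked group and the run on chromosome 17, the rises were below 2.1-fold. Trim16, a member without a RING domain known as the estrogen-responsive B-box protein, read 1.48 and 1.52 in Control, 2.29 on both 24H arrays, and 1.97 and 1.93 at 48H. Its replicates lay within 0.05 of each other in each group, and it rose by 0.79 ± 0.10 at 24H and 0.45 ± 0.10 at 48H (adjusted p = 0.0108 and 0.0456). Both calls were lost when any array of the groups compared was left out (adjusted p up to 0.167), and the 48H call also when a 24H array was left out (adjusted p = 0.0893). Trim69, a B30.2 member first described in testis, read -3.05 and -2.73 in Control, -2.22 and -2.54 at 24H and -1.70 and -2.00 at 48H. It rose at 48H (1.04 ± 0.19, adjusted p = 0.0286) and gave 0.51 at 24H (adjusted p = 0.144), and the 48H call was lost without any 1 of the 4 arrays compared (adjusted p up to 0.121).

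Of the 5 members tested with a COS box, which binds microtubules, 2 rose and 0 fell at 24H. At 48H 1 rose and 1 fell. Of all genes tested, 8.02% rose and 5.99% fell at 24H, and 6.58% rose and 7.38% fell at 48H. Those that passed were Trim46, Trim54 and Trim9. Trim46, which bundles microtubules at the start of the axon, read -0.79 and -0.46 in Control, 0.05 on both 24H arrays, and 0.07 and 0.08 at 48H. It rose by 0.67 ± 0.14 and 0.70 ± 0.14 (adjusted p = 0.0388 and 0.0347), and each call was lost on leaving out any 1 of the 6 (adjusted p as high as 0.143). Trim54, a muscle RING finger protein, read -4.24 and -4.62 in Control, -3.44 and -3.60 at 24H and -3.81 and -4.00 at 48H (0.91 ± 0.17, adjusted p = 0.0289, and 0.53, adjusted p = 0.106). Its 24H call was lost without the second Control array or either 24H array (adjusted p up to 0.127), and with normexp and quantile normalization its rise was 0.24. Trim9, a brain ligase, read -2.22 and -2.64 in Control, -2.93 and -3.21 at 24H and -3.45 and -3.59 at 48H. It fell at 48H by 1.09 on the log2 scale (adjusted p = 0.0232). The 48H call of Trim9 was lost without the first Control array or either 48H array (adjusted p up to 0.105), and the mean of its 3 probes, of which 2 were not well above background on any array, gave -0.27.

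Among the 5 members tested with NHL or filamin repeats, 0 passed at 24H, and at 48H 1 rose and 0 fell. Of all genes tested, 6.58% rose and 7.38% fell at 48H. Trim71, the let-7 target of early embryos also known as LIN41, read -4.18 and -3.74 in Control, -3.23 and -3.43 at 24H and -3.15 and -2.81 at 48H. It rose at 48H (0.98 ± 0.20, adjusted p = 0.0374), a call lost on leaving out any 1 of the 6 (adjusted p as high as 0.148), the mean of its probes gave 0.19, and normexp with the 75th percentile gave 0.38. Trim32, a ligase of striated muscle, read 3.29 and 3.57 in Control, 3.04 and 2.97 at 24H and 3.23 and 3.27 at 48H (differences of -0.43 and -0.18, adjusted p = 0.0967 and 0.427).

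All 6 members that fell at either time were well above background on every array. Trim37, a MATH-domain ligase mutated in mulibrey nanism, read 0.44 and 0.69 in Control, -0.61 and -0.33 at 24H and -0.44 and -0.41 at 48H. It fell by 1.03 at 24H and by 0.99 at 48H on the log2 scale (adjusted p = 0.0156 and 0.0179). Trim59, a membrane-anchored member, read 4.31 and 4.36 in Control, 3.68 and 3.82 at 24H and 3.56 and 3.59 at 48H. It fell by 0.58 and by 0.75 (adjusted p = 0.0291 and 0.0158). The stimulated arrays of both genes all lay below Control. The 24H call of Trim37 was lost without the second Control array (-0.91, adjusted p = 0.0776) or the first 24H array (-0.89, adjusted p = 0.0702), its 48H call without any 1 of the 4 arrays compared (adjusted p up to 0.0834), and the calls of Trim59 without any 1 of the arrays compared (adjusted p up to 0.134 at 24H and 0.0792 at 48H), its 24H call also without either 48H array (adjusted p = 0.0589).

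Trim44, a member with a zinc finger in place of the RING, read 3.86 and 3.87 in Control, 3.24 and 3.15 at 24H and 3.56 and 3.45 at 48H. It fell at 24H by 0.68 (adjusted p = 0.0195), with -0.36 at 48H (adjusted p = 0.0896). Trim24, the TIF1-alpha co-regulator of nuclear receptors, read 2.39 and 2.56 in Control, 1.88 and 2.03 at 24H and 2.09 and 2.11 at 48H. It fell at 24H by 0.52 (adjusted p = 0.0494). The other TIF1 genes did not pass. Trim28, the corepressor KAP1, read 3.88 and 4.01 in Control, 3.56 and 3.64 at 24H and 3.59 and 3.64 at 48H (differences of -0.34 and -0.32, adjusted p = 0.107 and 0.121). Trim47, a B30.2 member, read 4.57 and 4.49 in Control, 4.13 and 4.06 at 24H and 3.78 and 3.51 at 48H. It fell at 48H by 0.89 (adjusted p = 0.0172), with -0.44 at 24H (adjusted p = 0.0924). The call of Trim44 was lost without any 1 of the 4 arrays compared (adjusted p up to 0.0938), that of Trim24 without any 1 of the 6 (adjusted p up to 0.198), and that of Trim47 without either Control array or the second 48H array (adjusted p up to 0.0909).

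**Figure D5:**
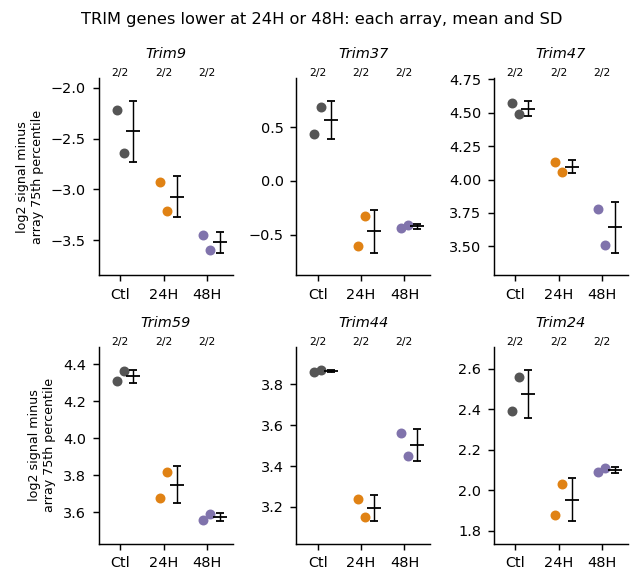
Log2 signal relative to the 75th percentile on each of the 6 arrays (dots) for the 6 TRIM genes that fell at either time, with the mean and SD of the 2 arrays of a group beside the dots; each panel has its own axis. All were well above background on 2 of 2 arrays in each group, and the dots of both stimulated groups lie below the Control dots in each panel.

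Trim43c, from a group known in early embryos, read -0.41 and -0.28 in Control, -0.25 and -0.31 at 24H and -0.46 and -0.47 at 48H (differences of 0.06 and -0.12). Trim35, a B30.2 member first linked to cell death, read 4.97 and 4.99 in Control, 4.83 on both 24H arrays, and 4.93 and 5.07 at 48H (-0.15 and 0.02, adjusted p = 0.409 and 0.939). Trim62 gave fitted values of 1.92 and 1.34, but its Control arrays read -4.14 and -6.30 and it did not pass (adjusted p = 0.125 and 0.253).

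Between 24H and 48H, 0 of the 49 members passed limma's test at an adjusted p under 0.05, as did 0 of all genes. At an unadjusted p under 0.05, 9 members and 3357 genes differed. With a 2-fold change required as well, 0 members passed in either direction, beside 0.868% of all genes higher and 1.4% lower at 48H. The largest differences upward were those of Trim21 (0.88 ± 0.36), Trim30a (0.81 ± 0.31) and Trim30d (0.81 ± 0.35), at unadjusted p of 0.0552, 0.043 and 0.0621. The largest downward were those of Trim38 (-2.05 ± 1.60), Trim15 (-0.79 ± 0.22) and Trim42 (-0.75 ± 0.17), at unadjusted p of 0.252, 0.0141 and 0.0061 and adjusted p of 0.62, 0.241 and 0.189. Trim42 read -3.92 and -4.27 in Control, -3.33 and -3.50 at 24H and -4.28 and -4.04 at 48H, with 1 of 2 arrays well above background at 48H. Without the first 48H array 4 members passed the unadjusted thresholds, without either 24H array 1 did, and under median centring 3 did. The share of all genes that passed them under these settings was not counted.

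Genes that work with TRIM ligases were followed by lists of other proteins. For these lists and the cell type markers further below, the shares of all genes tested give the scale. These were 8.02% higher and 5.99% lower at 24H, and 6.58% higher and 7.38% lower at 48H. Of 23 tested genes of ubiquitin and ISG15 conjugation, 5 rose and 1 fell at 24H, and 3 rose and 0 fell at 48H. Those that rose at both times were the genes of the ISG15 route. Isg15 read -0.55 and 0.13 in Control, 4.30 and 4.80 at 24H and 5.42 and 6.02 at 48H (adjusted p = 0.0028 and 0.00139). Its activating enzyme Uba7 went from -4.40 and -3.73 to -0.20 and 0.60 at 24H and to 1.76 and 2.05 at 48H (adjusted p = 0.00376 and 0.00145), and its conjugating enzyme Ube2l6 from -1.08 and -1.20 to 1.02 and 1.36 and to 2.15 and 2.57 (adjusted p = 0.00419 and 0.00142). The median of the list was -0.03 at 24H and -0.10 at 48H.

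Of 23 tested proteins of nucleic-acid and Toll-like sensing on which TRIM ligases act, 6 rose at each time and 0 fell. Irf7, the factor that drives interferon genes, read -4.45 on both Control arrays, -0.92 and -0.65 at 24H and 0.25 and 0.67 at 48H (adjusted p = 0.00145 and 0.000927). Dhx58, an RNA-sensor relative, rose by 3.34 and 4.21 on the log2 scale (adjusted p = 0.00386 and 0.00193), and Ddx58, the gene of RIG-I, by 3.11 and 3.36 (adjusted p = 0.00414 and 0.00302). Tmem173, Tlr3 and Myd88 were the other 3. The list's median was 0.20 at 24H and 0.09 at 48H.

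Of 12 tested genes of interferon signaling (receptors, STATs, IRFs, Jak1, Tyk2 and Socs1), 4 rose and 1 fell at 24H. At 48H 5 rose and 1 fell. Stat2 rose by 2.77 and 3.54 (adjusted p = 0.00235 and 0.00127), Irf9 by 2.73 and 2.79 (adjusted p = 0.00437 and 0.00373), and the inhibitor Socs1 by 1.33 and 1.66 (adjusted p = 0.012 and 0.00702). Ifngr1 was the member that fell (-0.71 and -0.68, adjusted p = 0.015 and 0.0172). Ifnb1, the gene of interferon-beta, was well above background on 0 of 6 arrays. Of 12 tested relatives of the TRIM family that carry other names, 0 rose at 24H (limma, adjusted), where the median was 0.10, and 1 rose at 48H, Rnf135, a RIG-I ligase (0.90, adjusted p = 0.0308), with 0 falling at either time. Pml, the relative that builds nuclear bodies, gave 0.02 and 0.26 and did not pass (adjusted p = 0.937 and 0.252).

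Cell type markers were read on the same arrays. Of the 11 prostate epithelial markers, 7 were tested, and Cdh1 and Hoxb13 were well above background on 0 of 6 arrays. Of those tested, 0 passed limma's adjusted test at 24H and 1 did at 48H, Krt8 (1.98, adjusted p = 0.0106). Of the 16 leukocyte markers on the arrays 11 were tested and 2 rose at both times, Mrc1 by 4.27 and 3.56 (adjusted p = 0.000845 and 0.000927) and Cd14 by 0.87 and 0.69 (adjusted p = 0.0101 and 0.0191). Ptprc, the pan-leukocyte marker, read -4.01 and -3.63 in Control, -2.99 and -3.30 at 24H and -3.51 and -3.84 at 48H. It did not pass (adjusted p = 0.0872 and 0.685), and Lyz2 and Ms4a1 were well above background on 0 of 6 arrays. Itgam (5.40 and 5.23 in Control), Cd3e (2.67 and 2.25) and Nkg7 (2.56 and 2.47) were well above background on every array. These genes did not pass at either time. The log2 of the summed leukocyte signal lay between 5.66 and 5.84 in Control, 5.47 and 5.72 at 24H and 5.19 and 5.56 at 48H. This sum adds different probes, of which that of Itgam was the brightest. The part of leukocyte signal in the TRIM changes was not tested. Of the 8 skeletal muscle markers, 5 were tested, 1 rose at 24H and 1 fell at 48H, and Myog and Myod1 were well above background on 0 of 6 arrays. In a culture measured in bulk, a change in every cell and a change in the share of cells that express a gene cannot be told apart.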

How the data were processed

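RNA of N18-Fms cells was measured on 6 single-color Agilent SurePrint mouse arrays. For each array the deposited file is scanner output written by Feature Extraction 11.0.1.1, and the linear intensity of each spot, processed within its array by the authors' software, was taken from it. Mean and local background intensity were deposited as well. A second deposited source holds the authors' log2 values of 44569 probes, whose array differences followed the log2 signals within 0.05 for 99.8% of values, apart from a constant for each array (column medians between -0.038 and 0.173). The tables gave no comparison columns.

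Spots flagged as outliers, between 170 and 301 an array, were left out and repeated spots averaged. Each array was scaled on the log2 scale to its 75th percentile (550.3 to 610.9 as intensity), and the brightest probe per gene was used. Tests used limma 3.58.1 in R 4.3.3 on all 6 arrays, with 3 residual and 2.39 prior degrees of freedom, and were tested on simulated data. Groups and replicate numbers came from the labels. Nothing in the labels says that the replicates are separate cultures, the methods speak of independent experiments, and p-values measure the spread between these samples.

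Genes were named by rule: members called at either time, the member of each role group with the highest Control signal (a choice of name only), the 3 largest changes each way between the times, and up to 3 genes of each list by adjusted p. Tmem173, Tlr3, Myd88, Ifngr1, Trim62 and the single markers were named for their values. The members, lists and tests were chosen with earlier results of these data known, and the role groups were written from general knowledge. Accessions and symbols were matched to the RefSeq table for the 3 renamed probes and for gene order. Alternatives were another scaling or background correction, the authors' log2 values, other filters and probe rules, other tests and thresholds, a replicate block, and leaving out each array.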

Additional observations from a re-analysis of the deposited data

Results flagged for a closer look

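Trim25 drew attention by a probe that the comparison of genes does not use. That probe was well above background on all 6 arrays, and both 48H arrays (4.54 and 4.78) lay more than 1 log2 unit above the higher Control array (3.36), a log2 difference of 1.48, whereas the brighter probe that stands for the gene gave 0.38 and did not pass. At 24H the probe read 4.31 and 4.34, a difference of 1.15. The file places the brighter probe over 6226 bases of the genome and the other over 60. Which of the transcripts of Trim25 each probe reads was not tested.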

How the results depend on the processing

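No call of a member changed sign under any alternative, but many calls were lost, and with 2 arrays a group the number of arrays is the limit. The number of members that fell at 24H, 4 as reported, was 10 under median centring, 0 without the filter on dim probes, 8 with an intensity trend, 2 with only the groups compared in the fit and 1 at an unadjusted p under 0.05 with a 2-fold change. The share of all genes that fell at 24H, 5.99% as reported, was 15.3%, 0.974%, 10.4%, 3.49% and 1.83% under these in the same order. The number that fell at 48H, 4 as reported, was 0 without the filter, 8 with the trend and 1 at the unadjusted threshold, and the number that rose at 48H, 14 as reported, was 9 without the filter and 9 at the unadjusted threshold. Of all genes, 0.583%, 13.8% and 1.83% fell at 48H under these settings, against 7.38% as reported. The share that rose at 48H, 6.58% as reported, was 1.83% without the filter and 4.66% at the unadjusted threshold. Without the filter 36028 genes were tested. The methods' t-test, adjusted, called 0 members in either direction at either time, and also 0% of all genes. At an unadjusted p under 0.05 it passed 22 members at 24H and 20 at 48H, and with a 2-fold change 9 rose and 1 fell at each time. For this test the share of all genes past the unadjusted thresholds was not counted.

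Between 48H and 24H, 3 members passed the unadjusted thresholds under median centring. The median change at 24H, 0.368 as reported, was 0.066 under median centring, 0.213 with normexp and the 75th percentile, 0.084 with normexp and quantile normalization, 0.567 without the filter and 0.200 over members above background on all 6 arrays. The median of all genes, 0.037 as reported, was -0.265, 0.028, -0.014, 0.184 and 0.009 under these settings in the same order. The median at 48H, 0.292 as reported, was 0.141 and 0.093 with normexp before the 75th percentile and before quantile normalization. That of all genes at 48H, -0.044 as reported, was -0.03 and -0.031. With each array left out in turn, the number that rose ranged from 6 to 12 at 24H and from 6 to 10 at 48H, the number that fell from 0 to 2 at 24H and from 0 to 4 at 48H, the number between the times from 0 to 4, and the medians from 0.368 to 0.507 at 24H and from 0.211 to 0.340 at 48H. Of all genes, 2.55% to 6.81% rose and 0.978% to 3.49% fell at 24H under these omissions. At 48H 2.63% to 4.68% rose and 0.901% to 3.91% fell. The median of all genes ranged from -0.015 to 0.083 at 24H and from -0.099 to -0.001 at 48H. Between the times, the share of all genes under median centring or these omissions was not counted. The authors' log2 values gave 14 and 14 rises and 3 and 4 falls. By these values 8.11% of all genes rose and 5.96% fell at 24H, and 6.66% rose and 7.06% fell at 48H.

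Same-numbered arrays deviated together weakly (correlations across genes of 0.128, 0.094 and 0.199), so the numbers were not taken to pair the arrays. With the replicate block, 14 members rose at each time, 5 fell at 24H and 4 at 48H, and 34 of 35 calls were kept, all but that of Trim15 at 48H (adjusted p = 0.0634). Under this block 9.1% of all genes rose and 6.32% fell at 24H, and 7.47% rose and 8.63% fell at 48H. A block for slide could not be fitted apart from leaving out the first 24H array, the only one on its slide. Testing each probe on its own, chosen after seeing the data, gave 13 rises at each time. Of the brightest probes of all genes, 7.55% rose at 24H and 5.91% at 48H in that test. The bounds of genes dim in Control rest on signal over background.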
